A study of Mus musculus with 16 samples.

Results

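The 9 genes described here encode interferon-inducible GTPases of mouse thymocytes. They are the guanylate-binding proteins (GBPs) Gbp2, Gbp3, Gbp6, Gbp7, Gbp8 and Gbp9 and the immunity-related GTPases (IRGs) Irgm1, Irgm2 and Igtp. The genes were chosen by symbol, and the choice was made on a measured pattern: Gbp genes were lower in BDC than in non-Tg DN2-3 cells. Values from that contrast are therefore given as a description and were not tested for these genes. The arrays read 19531 genes through a probe set (a group of probes summarised to 1 value) of their own. Of the 9 genes, 5 had such a probe set (Gbp3, Gbp7, Gbp8, Gbp9 and Irgm1), and all 5 passed the filter on low signal. The other 4 were read only by 3 probe sets that also match other genes. One matched Gbp2 and Gbp2b, one matched Gbp4, Gbp6, Gbp8, Gbp9, Gbp10 and Gbp11, and one matched Igtp and Irgm2. These are called the joint Gbp2/Gbp2b, joint Gbp6 and joint Igtp/Irgm2 readings, and none of them can be assigned to a single gene.

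Double-negative (DN) thymocytes, which carry neither CD4 nor CD8, were profiled on 16 Affymetrix Mouse Gene 1.0 ST arrays from mice aged 4 weeks. There were 8 groups of 2 arrays: BDC/NOD DN4, NOD DN4, BDC/B6g7 DN4, B6g7 DN4, BDC/NOD DN2-3, NOD DN2-3, BDC/B6g7 DN2-3 and B6g7 DN2-3. BDC mice carry the rearranged TCR genes of the CD4 clone BDC2.5, which causes diabetes on transfer, so their early thymocytes already hold a complete TCR. Mice without it are called non-Tg. NOD mice develop autoimmune diabetes, and B6g7 mice are C57BL/6 animals with the H2g7 MHC haplotype of NOD, so every group shared that haplotype. CD4 and CD8 cells were removed with complement and the rest sorted, DN4 as lineage-negative cells without CD44 and CD25 and DN2-3 as lineage-negative cells with CD25. Non-Tg arrays all came from female mice. In each BDC group replicate 1 was male and replicate 2 female. The labels do not say whether the 2 arrays of a group came from separate animals, so the spread behind every p-value is that between these arrays and may be technical.

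GBPs and IRGs are GTPases that interferon induces in most cell types. They settle on the membranes around intracellular microbes, and in mice the ATG8 conjugation system of autophagy directs them there. Irgm1, Irgm2 and Igtp are the regulatory IRGs, which keep the effector IRGs inactive on the cell's own membranes. Interferon-gamma signals from its receptor through the kinases Jak1 and Jak2 to promoter elements named GAS, and type I interferon signals to elements named ISRE. In the thymus, DN2-3 cells rearrange the TCR beta locus, and DN4 cells are those that have passed selection for a working beta chain.

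The genes lie in tandem arrays. Gbp7, Gbp3 and Gbp2 are in a cluster of 5 family genes on chromosome 3, and Gbp8, Gbp9 and Gbp6 in a cluster of 6 on chromosome 5. On chromosome 11, Irgm1 is in a cluster of 8 listed family genes, and Igtp and Irgm2 lie side by side elsewhere, next to the effector IRG Gm12250 (Irgb10). RefSeq promoter sequences (build GRCm38.p6, strain C57BL/6J) were at hand for 6 of the 9 genes. The last 120 bases before the annotated start are printed for these 6, since they hold the interferon motifs the genes share. Capitals mark the ISRE letters (GAAA and GAAA with 2 free bases between) and the GAS letters (TTC and GAA with 3 free bases between), searched on both strands. Gbp3 has a second annotated start, whose window held neither motif.
Gbp7 (chr3:142530216-142530335, plus strand): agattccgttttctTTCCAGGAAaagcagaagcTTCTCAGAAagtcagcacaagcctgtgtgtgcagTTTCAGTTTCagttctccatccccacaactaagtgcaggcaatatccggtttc
Gbp3 (chr3:142559924-142560043, plus strand): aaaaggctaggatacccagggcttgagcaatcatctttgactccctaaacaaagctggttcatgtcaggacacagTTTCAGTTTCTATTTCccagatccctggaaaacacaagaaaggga
Gbp2 (chr3:142620543-142620662, plus strand): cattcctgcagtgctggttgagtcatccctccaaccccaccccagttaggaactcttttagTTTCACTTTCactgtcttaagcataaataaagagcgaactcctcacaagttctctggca
Irgm1 (chr11:48871421-48871540, minus strand): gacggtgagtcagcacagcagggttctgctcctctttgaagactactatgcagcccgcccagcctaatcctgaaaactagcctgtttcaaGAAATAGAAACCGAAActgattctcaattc
Igtp (chr11:58199436-58199555, plus strand): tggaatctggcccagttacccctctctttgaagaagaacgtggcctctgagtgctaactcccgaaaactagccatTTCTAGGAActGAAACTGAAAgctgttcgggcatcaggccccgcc
Irgm2 (chr11:58214857-58214976, plus strand): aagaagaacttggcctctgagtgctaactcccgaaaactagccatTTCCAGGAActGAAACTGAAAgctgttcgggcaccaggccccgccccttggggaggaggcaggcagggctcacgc

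ISRE letters occurred in the window from 250 bases before to 50 bases after a start in all 6 genes, and in 3.44% of the 32851 windows of 300 bases in the promoter table. GAS letters occurred in 3 of the 6 (Gbp7, Igtp and Irgm2), and in 8.30% of all windows. Both motifs together occurred in the same 3 genes, and in 0.454% of all windows. The ISRE match nearest to the start began 24 bases before it in Irgm1, 34 in Igtp, 39 in Gbp3, 53 in Gbp7, 59 in Gbp2 and 64 in Irgm2. In Gbp3 and in Irgm1, 2 overlapping ISRE matches were found, and Gbp7 held 2 GAS matches, 106 and 87 bases before its start. In Igtp and in Irgm2 a GAS match lay just before the ISRE match. A match of letters is a description and does not show that a factor bound there.

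**Figure D1:**
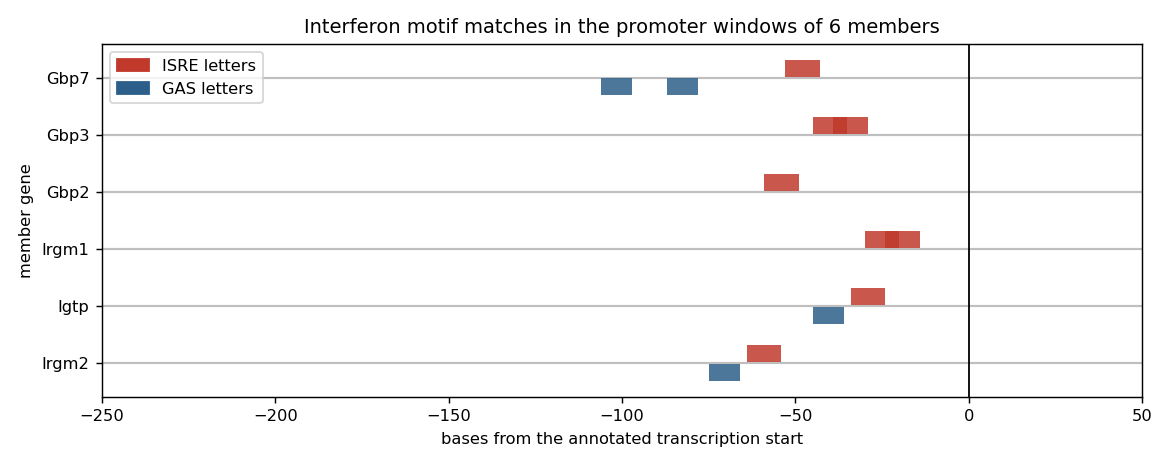
Position of ISRE (red) and GAS (blue) letter matches relative to the annotated transcription start (0) for 6 genes, over the window searched from 250 bases before to 50 after the start. All matches lie between 106 and 15 bases before the start, and Gbp7, Igtp and Irgm2 hold both kinds.

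Array medians ran from 123.1 to 138.2 intensity units. Signals up to 5.98 log2 units, the highest reading of a Y-linked gene on a female array, were taken as not above background. All 8 readings of the 9 genes were above it on every array. The sort labels matched the CD25 gene Il2ra, at 12.32 to 13.30 log2 units in DN2-3 arrays and 9.09 to 10.56 in DN4 arrays. Replicates correlated across genes at 0.989 to 0.995, apart from NOD DN2-3, whose 2 arrays correlated at 0.960 and differed by a median of 0.255 log2 units, against 0.0735 to 0.130 in the other 7 groups. In that group replicate 1 stood apart, with an upper to lower quartile ratio of intensities of 6.82, against 7.46 to 10.3 on the other 15 arrays. Differences of the 8 readings that rest on it are given with and without it. Correlations, marker sums, list counts and DN2-3 values of other genes are given only with it. In these bulk samples, fewer cells of a type and less RNA per cell cannot be told apart.

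In DN2-3 cells, the contrast on which the genes were chosen, all 8 readings averaged lower in BDC than in non-Tg cells, in both strains. The chromosome 5 genes differed most. Gbp8 read 9.12 and 9.04 log2 units on BDC/NOD arrays, against 11.16 and 11.08 on NOD arrays. It read 8.68 and 8.71 on BDC/B6g7 arrays, against 11.41 and 11.20 on B6g7 arrays. The groups lay far apart, with a 5.01-fold lower level in BDC over both strains (a log2 difference of -2.33). The joint Gbp6 reading was 9.05 and 8.97 in BDC/NOD, against 11.08 and 11.01 in NOD. In BDC/B6g7 it was 8.58 and 8.51, against 11.13 and 11.09 in B6g7. This reading holds Gbp8 and Gbp9 as well, and its averaged log2 difference of -2.30 was close to that of Gbp8. Gbp9 read 7.74 and 7.66 in BDC/NOD, against 9.35 and 9.45 in NOD. In BDC/B6g7 it read 7.49 and 7.38, against 9.66 and 9.67 in B6g7. The averaged difference for Gbp9 was -1.96, and BDC and non-Tg arrays did not overlap.

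The chromosome 3 genes differed less. The joint Gbp2/Gbp2b reading, in which Gbp2 is a GBP that coats the vacuoles of intracellular parasites in mouse cells, was 6.83 and 7.03 in BDC/NOD, against 8.37 and 8.21 in NOD. It was 7.41 and 7.53 in BDC/B6g7, against 8.82 and 8.90 in B6g7, and the averaged log2 difference was -1.38. Gbp2b has a probe set of its own as well, which was above background on 2 of the 16 arrays. Gbp7 read 9.35 and 9.16 in BDC/NOD, against 10.23 and 10.26 in NOD. It read 9.04 and 9.03 in BDC/B6g7, against 9.86 and 9.97 in B6g7. The averaged difference of Gbp7 was -0.94, with no overlap. Gbp3, the dimmest of the readings, was at 6.90 and 6.91 in BDC/NOD, against 7.36 and 7.53 in NOD. In BDC/B6g7 it was at 7.33 and 7.16, against 7.53 and 7.64 in B6g7. Its averaged difference was the smallest, at -0.44.

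The regulatory IRGs were also lower in BDC. Irgm1, whose loss in mice leaves blood stem cells and activated T cells prone to die when interferon-gamma is present, read 8.05 and 8.01 in BDC/NOD, against 8.77 and 8.78 in NOD. It read 8.04 and 8.11 in BDC/B6g7, against 9.04 and 8.94 in B6g7, an averaged difference of -0.83. The joint Igtp/Irgm2 reading was 7.30 and 7.25 in BDC/NOD, against 7.80 and 8.05 in NOD. In BDC/B6g7 it was 7.60 and 7.49, against 8.28 and 8.35 in B6g7. Its averaged difference was -0.71. Without NOD DN2-3 replicate 1 the averaged differences were -2.30 for Gbp8, -2.28 for the joint Gbp6 reading, -1.99 for Gbp9, -1.34 for joint Gbp2/Gbp2b, -0.94 for Gbp7, -0.83 for Irgm1, -0.77 for joint Igtp/Irgm2 and -0.48 for Gbp3.

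Markers of other cells were read beside the DN2-3 pattern. Summed intensity of 7 gamma-delta and innate-like T cell markers was 4412 to 6678 on BDC DN2-3 arrays, against 1274 to 1484 on non-Tg DN2-3 arrays, and Il23r was not above background. The 11 DN2-3 thymocyte markers summed to 14956 to 15787 in BDC, against 21745 to 26865 in non-Tg. For 7 B cell markers the sums were 716 to 829 and 1043 to 1125, with Cd79a, Ms4a1 and Ebf1 not above background. For 8 NK and NKT cell markers they were 4428 to 6594 and 2857 to 3700, with Ncr1, Klrb1c and Klrd1 not above background. In DN4 the gamma-delta and innate-like sums were 9176 to 17425 in BDC, against 1151 to 1464 in non-Tg. The part of these differences in the GBP and IRG pattern was not tested. Among 8 macrophage and monocyte markers, the defining Csf1r, Itgam, Adgre1, Cd14 and Mpeg1 were not above background on any array. The sums were 671 to 762 in BDC DN2-3 and 720 to 846 in non-Tg DN2-3. Dendritic cell markers (9 genes, H2-Aa and Clec9a not above background) summed to 717 to 825 and 803 to 853. Both the macrophage and monocyte sums and the dendritic cell sums overlapped between BDC and non-Tg DN2-3. So did those of 7 thymic stroma markers (1450 to 1711 and 1521 to 1956) and 2 erythroid markers (156.7 to 188 and 176 to 209). The sums of 7 mature T cell markers were lower in BDC DN2-3 than in non-Tg DN2-3 (8524 to 9574 and 10409 to 11026). Those of 4 double-positive thymocyte markers were lower as well (6073 to 7432 and 7452 to 9345), and neither overlapped.

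**Figure D2:**
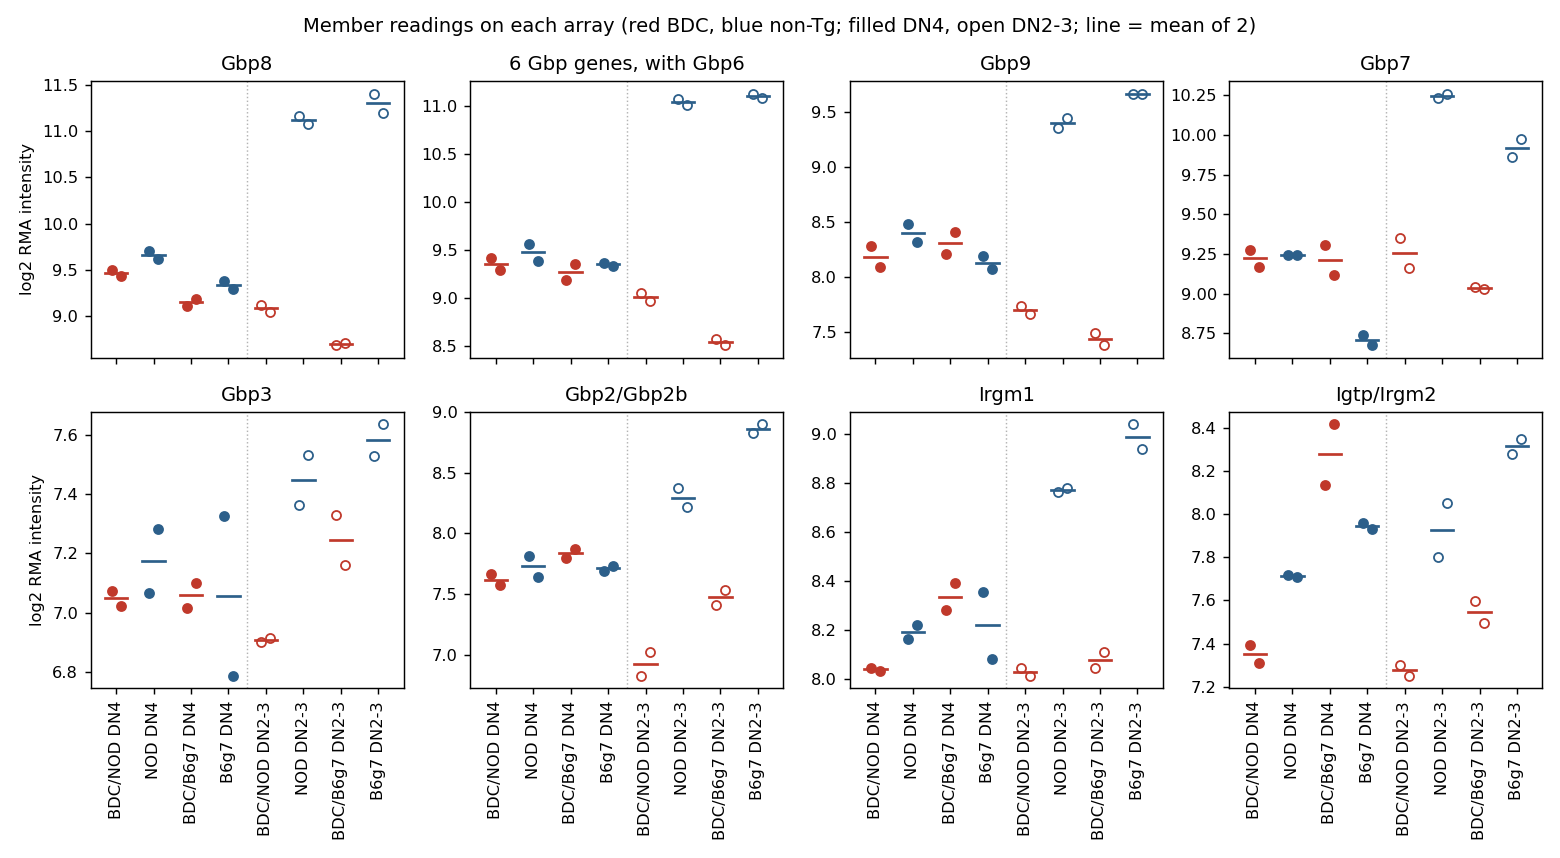
Log2 RMA intensity of the 8 readings on each of the 16 arrays, by group, with BDC in red, non-Tg in blue, DN4 filled, DN2-3 open and a line at the mean of 2 arrays. In 7 of 8 readings the 4 non-Tg DN2-3 arrays lie above the other 12, and in Igtp/Irgm2 they overlap with BDC/B6g7 DN4. The genes were chosen on part of this pattern, and the share of all genes with it was not counted. Each panel has its own vertical range.

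In 7 of the 8 readings the 4 non-Tg DN2-3 arrays stood above all other 12 arrays. Gbp8 lay at 11.08 to 11.41 on these 4 and at 8.68 to 9.70 on the others. Gbp3 had the narrowest gap, with 7.36 to 7.64 against 6.79 to 7.33. The exception was the joint Igtp/Irgm2 reading, at 7.80 to 8.35 on the non-Tg DN2-3 arrays and 7.25 to 8.42 on the rest. The genes were chosen on part of these arrays, and the share of all genes with non-Tg DN2-3 highest was not counted. The group with the lowest mean was BDC/B6g7 DN2-3 for Gbp8, Gbp9 and the joint Gbp6 reading. It was BDC/NOD DN2-3 for Gbp3, Irgm1, joint Gbp2/Gbp2b and joint Igtp/Irgm2, and B6g7 DN4 for Gbp7. Over the 8 group means, the 28 pairs of readings correlated at 0.328 to 0.994 (Pearson, median 0.849), and 19 pairs reached 0.8. The lowest value was that of Gbp7 with joint Igtp/Irgm2. These correlations are descriptions, since the same arrays and, for Gbp8, Gbp9 and the joint Gbp6 reading, the same transcripts stand behind them.

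Stage differences share the DN2-3 arrays on which the genes were chosen and were not tested. In non-Tg cells all 8 readings were lower in DN4 than in DN2-3. In NOD the log2 differences, DN4 minus DN2-3, ran from -1.57 for the joint Gbp6 reading and -1.46 for Gbp8 to -0.21 for joint Igtp/Irgm2 (-1.54, -1.42 and -0.34 without NOD DN2-3 replicate 1). In B6g7 they ran from -1.97 for Gbp8 to -0.37 for joint Igtp/Irgm2. The median over all genes was 0.10 in NOD and -0.04 in B6g7. In BDC cells the difference mostly had the opposite sign. Gbp9 was 0.48 higher in DN4 in BDC/NOD and 0.87 higher in BDC/B6g7, and Gbp8 was 0.38 and 0.45 higher. The exceptions were Gbp7 in BDC/NOD (-0.03) and Gbp3 in BDC/B6g7 (-0.19).

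In DN4 cells, whose arrays played no part in the choice of genes, BDC and non-Tg averages of the 8 readings lay within 0.24 log2 units of each other. BDC was compared with non-Tg with limma, a linear model with a moderated spread fitted to 10662 genes, and a gene was called at a Benjamini-Hochberg adjusted p below 0.05. Averaged over strains, 1 of the 5 genes with their own probe set was called higher in BDC (Gbp7) and 1 lower (Gbp8). Of all genes tested, 28.8% were called higher and 30.8% lower, so these counts are near or below the background share. The median log2 difference of the 5 genes was -0.02, against -0.03 over all genes. Gbp7 read 9.28 and 9.17 in BDC/NOD DN4, against 9.24 and 9.24 in NOD DN4. It read 9.31 and 9.12 in BDC/B6g7 DN4, against 8.74 and 8.68 in B6g7 DN4. The arrays overlapped in NOD and were apart in B6g7, and the averaged difference was +0.24 ± 0.07 (SE, adjusted p = 0.00698). Gbp8 read 9.50 and 9.43 in BDC/NOD DN4, against 9.70 and 9.62 in NOD DN4. It read 9.11 and 9.19 in BDC/B6g7 DN4, against 9.38 and 9.29 in B6g7 DN4. Gbp8 was lower in BDC on every array within each strain, by an averaged -0.19 ± 0.06 (adjusted p = 0.0208), a 1.14-fold difference.

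The other 3 genes and the 3 joint readings were not called in DN4 when averaged over strains. Their log2 differences and 95% intervals were -0.02 (-0.18 to 0.14) for Gbp9, -0.02 (-0.17 to 0.13) for Irgm1 and -0.06 (-0.28 to 0.16) for Gbp3. For the joint readings they were +0.01 (-0.15 to 0.16) for Gbp2/Gbp2b, -0.10 (-0.24 to 0.04) for Gbp6 and -0.01 (-0.18 to 0.15) for Igtp/Irgm2. The calls of Gbp7 and Gbp8 were lost with the 4 male arrays left out, so that every BDC group has a single array (+0.17, adjusted p = 0.155, and -0.19, adjusted p = 0.157). The call of Gbp8 was also lost when arrays were centred on their medians (-0.15, adjusted p = 0.0847) and without B6g7 DN4 replicate 1, NOD DN4 replicate 1, BDC/B6g7 DN4 replicate 1 or BDC/NOD DN4 replicate 2 (-0.17 each, adjusted p = 0.0634 to 0.0753).

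**Figure D3:**
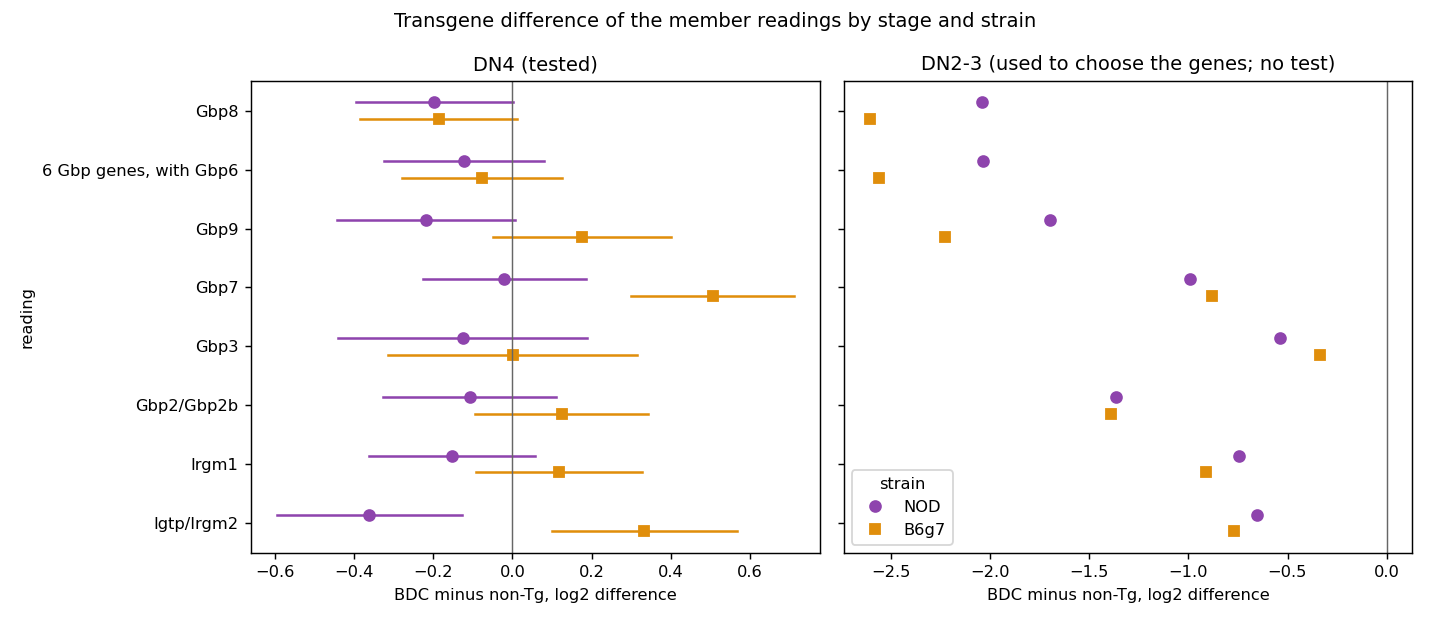
Log2 difference, BDC minus non-Tg, of the 8 readings in DN4 (left, with 95% intervals) and DN2-3 (right, no test, since the genes were chosen on it), for NOD (circles) and B6g7 (squares), with 2 arrays per group. DN4 differences lie between -0.36 and 0.51, and DN2-3 differences between -2.61 and -0.34; the panels have different horizontal ranges.

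The DN4 comparison was next made within each strain. In B6g7 cells 1 of the 5 genes was called, Gbp7, which was higher in BDC by +0.51 ± 0.10 (adjusted p = 0.000471, called under all 27 alternatives). Of all genes, 30.1% were called higher and 29.2% lower. In NOD cells none of the 5 was called by limma, and none had an unadjusted p below 0.05, with 10.6% of all genes called higher and 14.8% lower. The 5 differences in NOD ran from -0.22 for Gbp9 to -0.02 for Gbp7. The joint Igtp/Irgm2 reading was 7.39 and 7.31 in BDC/NOD DN4, against 7.72 and 7.71 in NOD DN4. In BDC/B6g7 DN4 it was 8.14 and 8.42, against 7.96 and 7.93 in B6g7 DN4. BDC was lower in NOD (-0.36 ± 0.11, adjusted p = 0.0274) and higher in B6g7 (+0.33 ± 0.11, adjusted p = 0.0174), with no overlap in either strain. These joint readings were tested over 12432 annotated probe sets, of which 14.1% were called lower in NOD and 28.5% higher in B6g7.

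The difference between strains in the DN4 transgene effect was tested as an interaction, NOD minus B6g7. Of the 5 genes 1 was called, Gbp7, at -0.53 ± 0.13 (adjusted p = 0.015), against 9.23% of all genes called higher and 11% lower. This count is near the share of all genes called in either direction. Joint Igtp/Irgm2 was called at -0.69 ± 0.15 (adjusted p = 0.00681), where 10.5% of annotated probe sets were called lower. Both were lost without the 4 male arrays (-0.49, adjusted p = 0.180, and -0.88, adjusted p = 0.0603). The Gbp7 interaction was also lost without NOD DN4 replicate 2 (-0.52, adjusted p = 0.0516), BDC/B6g7 DN4 replicate 1 (-0.43, adjusted p = 0.0725) or BDC/NOD DN4 replicate 2 (-0.47, adjusted p = 0.0713). Beside these results, the B6g7 DN4 arrays had quartile ratios of 7.60 and 7.46, against 8.30 to 10.0 on the other 6 DN4 arrays; the part of this difference in the results was not tested. The within-strain calls of joint Igtp/Irgm2 rested on few arrays. In B6g7 the call was lost without B6g7 DN4 replicate 1 (+0.35, adjusted p = 0.0514), B6g7 DN4 replicate 2 (+0.32, adjusted p = 0.0683) or BDC/B6g7 DN4 replicate 2 (+0.19, adjusted p = 0.196). In NOD it was lost without any 1 of the 4 arrays compared (-0.32 to -0.40, adjusted p = 0.0833 to 0.157), without the 4 male arrays (-0.40, adjusted p = 0.150) and with sex as a term (-0.36, adjusted p = 0.0556).

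Strain differences were tested in each genotype and stage. The DN2-3 arrays are those on which the genes were chosen. That choice compared BDC with non-Tg cells and not the strains, but it used the same values. The strain p-values in DN2-3 may therefore depend on the choice, which was not tested. In BDC DN2-3 cells Gbp8, whose array values are given above, was higher in NOD by +0.39 ± 0.09 (adjusted p = 0.0170), the only 1 of the 5 genes called, where 3.54% of all genes were called higher. The joint Gbp6 reading was higher by +0.47 ± 0.09 (adjusted p = 0.00586; 3.44% of annotated probe sets called higher). Joint Gbp2/Gbp2b went the other way, at -0.55 ± 0.10 (adjusted p = 0.00347; 5.82% called lower). Gbp7, of the same chromosome 3 cluster as Gbp2, was at +0.22 ± 0.10 and was not called (adjusted p = 0.203). Without the 4 male arrays none of the 3 was called (+0.33, +0.46 and -0.51, adjusted p = 0.575, 0.275 and 0.256). The call of Gbp8 was also lost without any 1 of the 4 arrays compared (+0.34 to +0.43, adjusted p = 0.0684 to 0.145) and after centring (+0.35, adjusted p = 0.0509). That of joint Gbp6 was lost without BDC/B6g7 DN2-3 replicate 2 (+0.44, adjusted p = 0.0540) or BDC/NOD DN2-3 replicate 1 (+0.43, adjusted p = 0.0694), and that of joint Gbp2/Gbp2b without BDC/NOD DN2-3 replicate 1 (-0.45, adjusted p = 0.0587).

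In non-Tg DN2-3 cells Gbp7 was higher in NOD by +0.33 ± 0.10 (adjusted p = 0.0429), where 4.99% of all genes were called higher. Joint Gbp2/Gbp2b was again lower in NOD, by -0.57 ± 0.10 (adjusted p = 0.00277), and joint Igtp/Irgm2 was lower by -0.39 ± 0.11 (adjusted p = 0.0360), where 5.89% of annotated probe sets were called lower. The Gbp2/Gbp2b difference was called under all 21 alternatives, and without NOD DN2-3 replicate 1 it was -0.65 (adjusted p = 0.00174). Without that array Gbp7 was at +0.34 (adjusted p = 0.0775) and joint Igtp/Irgm2 at -0.26 (adjusted p = 0.203), and neither was called. The call of Gbp7 was lost under 14 of 27 alternatives and that of joint Igtp/Irgm2 under 11 of 21.

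In BDC DN4 cells joint Igtp/Irgm2 showed the largest strain difference among the 8 readings. It was 1.90-fold lower in NOD (-0.93 ± 0.11, adjusted p = 1.86e-05), where 14.9% of annotated probe sets were called lower, and it was called under all 21 alternatives. Irgm1 was also lower there, at 8.05 and 8.03 in BDC/NOD against 8.28 and 8.39 in BDC/B6g7 (-0.30 ± 0.10, adjusted p = 0.0253). Gbp8 was higher (+0.32 ± 0.09, adjusted p = 0.0138). Thus 1 of the 5 genes was called higher and 1 lower, where 25.8% and 15.3% of all genes were. The call of Irgm1 was lost without BDC/B6g7 DN4 replicate 2 (-0.24, adjusted p = 0.159), BDC/NOD DN4 replicate 1 (-0.30, adjusted p = 0.0888) or BDC/NOD DN4 replicate 2 (-0.29, adjusted p = 0.110). That of Gbp8 was lost without BDC/B6g7 DN4 replicate 1 or BDC/NOD DN4 replicate 1 (+0.28 each, adjusted p = 0.0896 and 0.0946) and with quantile normalization again (+0.22, adjusted p = 0.0870). In non-Tg DN4 cells the median of all genes was itself shifted, by 0.13 toward NOD. There Gbp7 was higher in NOD by +0.54 ± 0.10 (adjusted p = 0.00288) and Gbp8 by +0.33 ± 0.09 (adjusted p = 0.0284), 2 of the 5 genes, where 14% of all genes were called higher. Joint Igtp/Irgm2 was not called there (-0.23 ± 0.11, adjusted p = 0.135). With quantile normalization again, which brought the median of all genes to 0.02, Gbp7 stayed called (its lowest value under 27 alternatives was +0.33) and Gbp8 did not (+0.16, adjusted p = 0.308). Gbp8 was also not called without any 1 of the 4 arrays compared (+0.29 to +0.37, adjusted p = 0.0795 to 0.123).

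**Figure D4:**
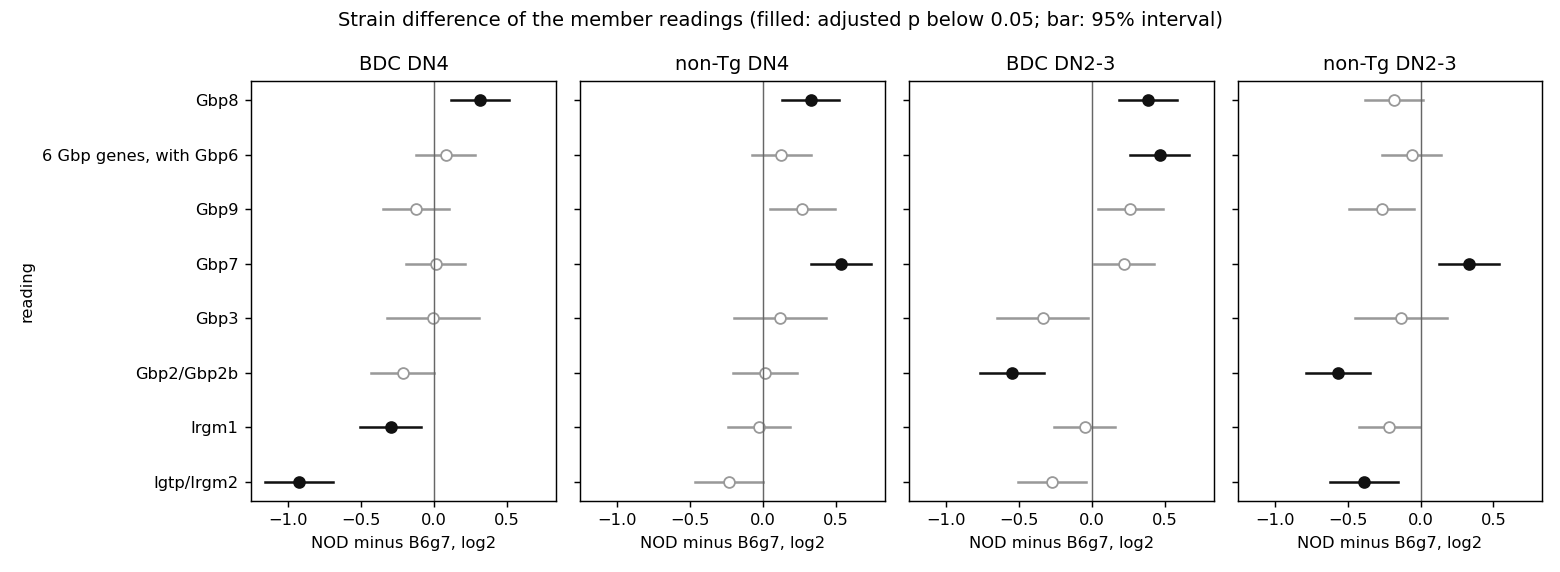
Log2 difference, NOD minus B6g7, of the 8 readings in BDC DN4, non-Tg DN4, BDC DN2-3 and non-Tg DN2-3 cells, with 95% intervals and 2 arrays per group; filled black points have an adjusted p below 0.05. Igtp/Irgm2 in BDC DN4 cells is the farthest from 0, at -0.93, and Gbp2/Gbp2b is near -0.55 in both DN2-3 panels. The DN2-3 panels use the arrays on which the genes were chosen.

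Other GBP and IRG genes were read beside these 9. Of 21 listed genes 9 had a probe set of their own, and 3 of these were bright enough to test (Gbp4, Gbp11 and Irgq). In DN2-3 cells, where this family was chosen and no test is given, Gbp4 and Gbp11 of the chromosome 5 cluster had the same pattern as Gbp8. Gbp4 read 9.45 and 9.44 in BDC/NOD, against 11.09 and 11.20 in NOD, and the averaged log2 difference was -2.01. For Gbp11 it was -2.17. Gbp5, a GBP linked to the NLRP3 inflammasome in mouse macrophages, was not above background on the 4 BDC DN2-3 arrays, while non-Tg DN2-3 arrays read 6.92 to 7.09, so it was at least 1.02 log2 units lower in BDC. Iigp1 and Gm4951 were not above background on any array, and Gm12185 was above it on 2. Irgc1 stayed between 6.33 and 6.80 on all 16 arrays. Irgq, an IRG-related protein, differed by 0.10 in DN2-3.

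In DN4 cells 2 of the 3 tested genes of the list were higher in BDC and none lower, when averaged over strains, where 28.8% of all genes were called higher and 30.8% lower. Gbp4 was at 10.00 and 10.03 in BDC/NOD, against 9.83 and 9.77 in NOD. It was at 9.95 and 9.90 in BDC/B6g7, against 9.03 and 9.40 in B6g7, an averaged +0.46 ± 0.10 (adjusted p = 0.00101). Within strains Gbp4 was called in B6g7 (+0.71 ± 0.14, adjusted p = 0.000551) and not in NOD (+0.21 ± 0.14, adjusted p = 0.293). Irgq was higher by +0.98 ± 0.14 (adjusted p = 4.92e-05). Gbp11 was not called (+0.03 ± 0.11, adjusted p = 0.825).

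The effector IRGs Tgtp1/Tgtp2 and Ifi47 were read by shared probe sets and were not tested. Tgtp1/Tgtp2, known as Irgb6, read 8.72 to 9.35 on BDC DN2-3 arrays, against 10.30 to 10.52 on non-Tg DN2-3 arrays. In DN4 the ranges overlapped, at 8.62 to 9.68 in BDC and 8.31 to 8.73 in non-Tg, and the 2 highest values were those of BDC/B6g7. Ifi47, known as Irgd and read together with Olfr56, was lower in BDC without overlap at both stages, with 7.64 to 7.75 on BDC DN4 arrays against 7.86 to 8.20 on non-Tg DN4 arrays, and an averaged log2 difference of -0.53 in DN2-3. The brightest probe set of Gvin1, a very large interferon-inducible GTPase read with 4 related genes, differed in opposite directions at the 2 stages. In DN4 it was higher in BDC, at 7.77 to 8.79 against 6.65 to 7.67, and in DN2-3 lower, at 8.17 to 8.84 against 8.95 to 9.30. Another probe set of the same genes also had no overlap at either stage. A probe set of Gvin1 and Gm4070 only was higher in BDC DN4, at 7.21 to 7.59 against 6.20 to 7.09. In DN2-3 its arrays overlapped, at 7.73 to 7.90 in BDC and 7.87 to 8.24 in non-Tg.

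**Figure D5:**
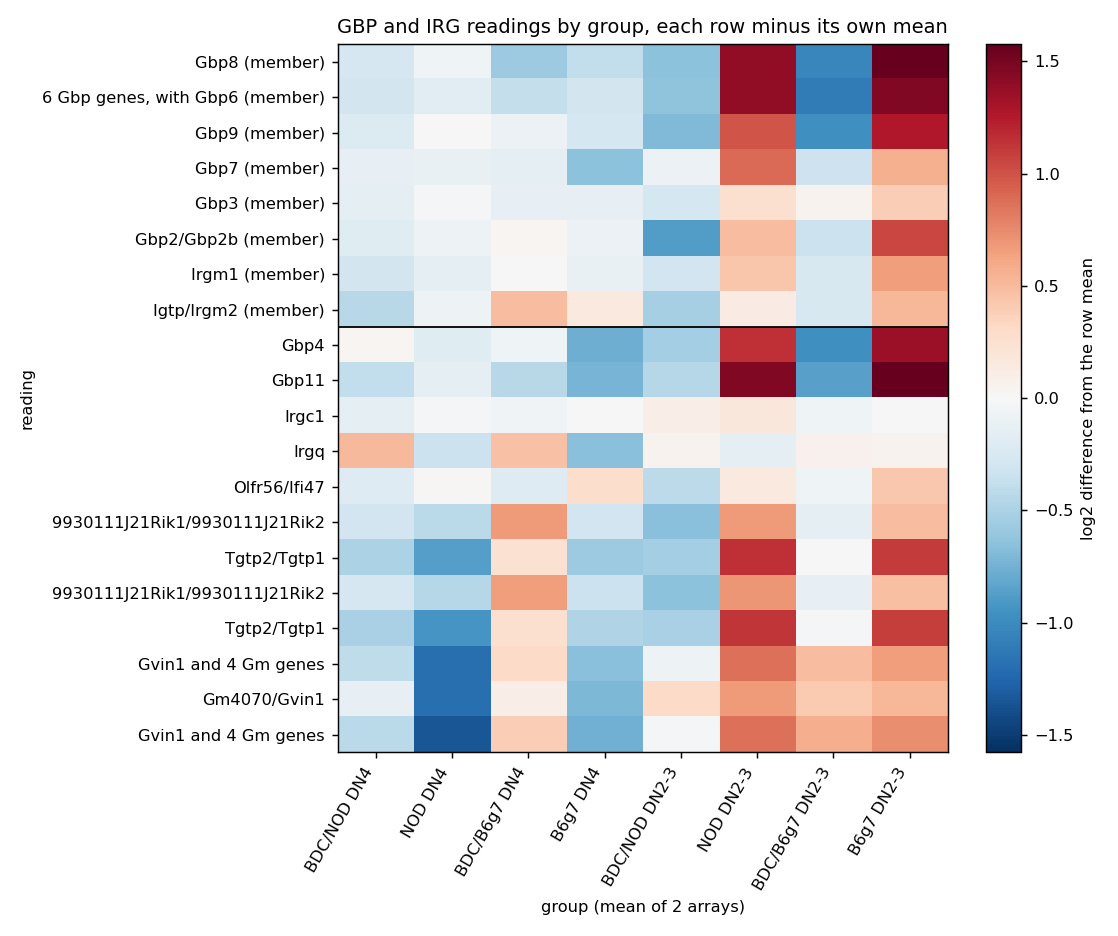
Group means of the 8 member readings (above the line) and of 12 other GBP and IRG readings that were above background in at least 4 groups (below it), each row minus its own mean over the 8 groups, in log2 units from -1.35 (blue) to 1.58 (red). NOD DN2-3 and B6g7 DN2-3 are red in most rows. The Igtp/Irgm2, Irgq, Tgtp, 9930111J21Rik and Gvin1 rows are red in BDC/B6g7 DN4. Irgq is red in BDC/NOD DN4 as well, and it is not red in NOD DN2-3.

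The interferon pathway itself was followed with lists of its genes. In the interferon-gamma list, 9 of 16 tested genes were higher in BDC and none lower in DN4, averaged over strains, with a median of 0.26 against -0.03 over all genes, of which 28.8% were called higher and 30.8% lower. The receptor chain Ifngr2 was higher by +1.49 ± 0.09 (adjusted p = 1.99e-08) and Ifngr1 by +0.87 ± 0.06 (adjusted p = 1.14e-07). The kinases that signal from it, Jak1 (+1.29 ± 0.08, adjusted p = 3.17e-08) and Jak2 (+0.65 ± 0.07, adjusted p = 2.99e-06), were higher as well. In DN2-3, 2 of the 16 were higher and 4 lower, where 29.8% of all genes were called higher and 19.3% lower. Of the 4 receptor and kinase genes just named only Ifngr2 was called (+0.39 ± 0.09, adjusted p = 0.00321). The other gene called higher was Psmb9 (+0.25 ± 0.09, adjusted p = 0.0366). Those called lower were Ifng, the cytokine gene itself (-1.03 ± 0.08, adjusted p = 5.07e-07), Irf2 (-0.49), Batf2 (-0.32) and Nlrc5 (-0.27). Ifng was dim, averaging 6.41 in BDC/NOD DN2-3 against 7.66 in NOD DN2-3. It averaged 6.80 in BDC/B6g7 DN2-3 against 7.60 in B6g7 DN2-3. In DN4 it was called higher in BDC by limma (+0.42 ± 0.08, adjusted p = 0.000415). Its DN4 means were 7.49 in BDC/B6g7 against 6.46 in B6g7, and 6.30 in BDC/NOD against 6.50 in NOD.

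Type I interferon response genes were counted in each stage, and the difference between stages was not tested. In DN4, 16 of 27 were higher in BDC and 3 lower (28.8% and 30.8% of all genes), with a median of 0.45. In DN2-3 none was higher and 15 were lower (29.8% and 19.3% of all genes), with a median of -0.40 against 0.05 over all genes. Usp18, which restrains type I interferon signalling, was higher in BDC DN4 by +1.45 ± 0.12 (adjusted p = 4.80e-07). So were Lgals3bp, a secreted glycoprotein (+1.29 ± 0.30, adjusted p = 0.00198), and Irf7, a transcription factor that amplifies the response (+1.19 ± 0.12, adjusted p = 2.67e-06). Within NOD DN4 alone Lgals3bp was not called by limma (+0.72 ± 0.42, adjusted p = 0.244), while Usp18 and Irf7 were. Ddx58, the RNA sensor RIG-I, was called in both stages, at +1.13 ± 0.07 in DN4 (adjusted p = 2.35e-08) and -0.65 ± 0.07 in DN2-3 (adjusted p = 1.12e-05). Between strains, in the BDC DN4 cells where joint Igtp/Irgm2 was lower in NOD, 16 of 27 type I genes and 8 of 16 interferon-gamma genes were lower in NOD and 1 of each list was higher, where 15.3% of all genes were called lower and 25.8% higher. The DN4 interaction was called lower for 11 of the 27 and 4 of the 16, and higher for 1 of the 27, against 11% of all genes called lower and 9.23% higher.

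The machinery that places GBPs and IRGs on membranes, and the inflammasome that some GBPs feed, were listed too. Of 13 genes of the ATG8 conjugation system, 8 were higher and 3 lower in BDC DN4 averaged over strains, against 28.8% and 30.8% of all genes. The initiating kinase Ulk1 was at +0.82 ± 0.14 (adjusted p = 0.000194), the ATG8 protein Map1lc3b at +0.54 ± 0.09 (adjusted p = 0.000135), the cargo receptor Sqstm1 at +0.51 ± 0.07 (adjusted p = 4.70e-05) and the conjugation factor Atg5 at -0.35 ± 0.06 (adjusted p = 0.000251). In NOD DN4 alone none of these 4 genes was called by limma (+0.47, +0.31, +0.30 and -0.23, adjusted p = 0.0539 to 0.0995). In DN2-3, 3 of the 13 were higher and 1 lower, against 29.8% and 19.3% of all genes. Of 10 inflammasome genes 3 were tested, too few to set against these shares. In DN4 the pore-forming Gsdmd was higher (+0.63 ± 0.07, adjusted p = 8.27e-06) and the adaptor Pycard lower (-0.39 ± 0.09, adjusted p = 0.00163), and in DN2-3 none was higher and 2 were lower.

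The mean of the 5 genes with their own probe set was compared with other genes by Pearson correlation over 8 group means. The 5 most alike of 10654 genes outside the family were named. They were Ocrl, an inositol phosphatase (0.987), Pcmtd1 (0.985), Kyat1, a kynurenine aminotransferase (0.974), the signalling adaptor Gab1 (0.974) and the co-chaperone Dnajb14 (0.967). Pcmtd1 averaged 8.79 in BDC/NOD DN2-3 against 10.57 in NOD DN2-3, and 8.62 in BDC/B6g7 DN2-3 against 10.73 in B6g7 DN2-3. These correlations rest on the same 8 groups for every gene and carry no test.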

How the data were processed

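Each of the 16 thymocyte samples was read on 1 array. The deposited values were linear intensities that the authors had made with RMA in Affymetrix Power Tools, per the submitters' processing notes (versions not given in the sources used here). RMA subtracts background, normalizes arrays to each other and summarises probes. Medians and quartile ratios still differed between the arrays as deposited, so 2 further normalizations were tried. Levels of different probe sets are not comparable. Of 25108 probe sets, 21157 carried 1 gene symbol, 1341 several and 2610 none. Values were taken to log2 without a pseudocount, and the brightest probe set per symbol was kept. Genes entered the test if the highest of their 8 group means was at least 7.06 log2 units (133 on the linear scale), the median of the named probe sets, which left 10662 genes. Precision is limited by the number of arrays.

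limma 3.58.1 in R 4.3.3 (with data.table, version 1.17.8) fitted 8 group means with eBayes (8 residual and 5.05 prior degrees of freedom), two-sided, with Benjamini-Hochberg adjustment over all tested genes at 0.05. The fit was tested on simulated data. The 3 shared probe sets were tested in an added fit over 12432 probe sets, chosen after seeing the data, as was counting the pathway lists in DN2-3. The members and gene lists were chosen with earlier results of these data known. The text names all members, every measured gene of the GBP and IRG list, up to 4 genes per pathway list with the largest called DN4 change and no overlap of arrays in either strain, the 5 most alike genes, and the neighbours of the clusters (only the range and the largest are given). The interferon-gamma genes called in DN2-3 were also named, after seeing the data. Lists covered other GBP and IRG genes, interferon-gamma pathway, type I interferon response, ATG8 conjugation, the inflammasome and cell type markers. Promoter sequences and gene order came from RefSeq. Alternatives were 2 filters, every probe set with 1 symbol, 2 normalizations, a replicate block, sex as a term, eBayes with trend and robust, array weights, a fit of only the arrays compared, and leaving out the male arrays or each array in turn.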

Additional observations from a re-analysis of the deposited data

Results flagged for a closer look

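The effect of the BDC transgene in DN4 cells differed between strains in 2 readings, by the interaction test. For Gbp7 the log2 interaction, NOD minus B6g7, was -0.53 ± 0.13 (adjusted p = 0.015): BDC minus non-Tg was -0.02 in NOD and +0.51 in B6g7. For the joint Igtp/Irgm2 reading it was -0.69 ± 0.15 (adjusted p = 0.00681): BDC minus non-Tg was -0.36 in NOD and +0.33 in B6g7. Both kept their sign under all alternatives run. The call was lost under 4 of 27 alternatives for Gbp7 and under 1 of 21 for joint Igtp/Irgm2. In this test 11% of all genes and 10.5% of annotated probe sets were called lower.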

How the results depend on the processing

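Counts of called genes among the 5 with their own probe set moved under several alternatives. In the DN4 comparison of BDC with non-Tg averaged over strains, 2 were called, against 1 after centring each array on its median and 0 without the 4 male arrays. For NOD minus B6g7 in BDC DN2-3 cells 1 was called, against 2 with only the arrays compared, 0 after centring and 0 with male arrays left out. For non-Tg DN2-3 cells the count was 1, against 0 with no filter, centring, array weights, only the arrays compared or no male arrays. In BDC DN4 cells 2 were called, against 1 with no filter, 1 with quantile normalization again and 0 with male arrays left out. For non-Tg DN4 cells the count was 2, against 1 with no filter, with quantile normalization again, with only the arrays compared and with male arrays left out, and 3 after centring. For the interaction in DN4 1 was called, against 2 after centring or array weighting and 0 with male arrays left out. Without the male arrays each BDC group has 1 array, which is assumed to vary like the others. Leaving out each array in turn gave ranges of 1 to 2 (BDC minus non-Tg in DN4), 1 to 2 (in B6g7 DN4), 0 to 0 (in NOD DN4), 0 to 1 (NOD minus B6g7 in BDC DN2-3), 0 to 2 (non-Tg DN2-3), 0 to 2 (BDC DN4), 1 to 3 (non-Tg DN4) and 0 to 2 (interaction). Calls over all genes moved too. Without the male arrays fewer genes were called in every comparison. With only the arrays compared, strain calls over all genes rose from 982 to 1503 in BDC DN2-3 cells. In non-Tg DN2-3 cells they fell from 1127 to 81. The causes were not tested. No result changed its sign past the threshold. Of the 18 called values, 4 stayed called under every alternative run on them: Gbp7 between BDC and non-Tg in B6g7 DN4, Gbp7 between strains in non-Tg DN4, joint Gbp2/Gbp2b between strains in non-Tg DN2-3 and joint Igtp/Irgm2 between strains in BDC DN4. Another 6 values that were not called passed the threshold under some alternative. The values called in DN2-3 rest on the arrays on which the genes were chosen.

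The labels give groups the same replicate numbers but do not tie them to a litter or batch. Deviations of same-numbered samples correlated at -0.25 to 0.59, above 0.1 in 12 of 28 pairs of groups. With the replicate block the counts were 2, 1, 0, 1, 1, 2, 2 and 1, in the order of the ranges above, and no count changed. The planned reading of a gene's other probe sets gave no value, since each of the 5 genes has 1 probe set of its own; Gbp8 and Gbp9 are also matched by the joint Gbp6 probe set, given apart.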

Other observations

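The genes next to the 4 GBP and IRG clusters were read to see how far the DN2-3 pattern extends along the chromosomes. Among the 24 nearest measured genes, 3 on each side, BDC minus non-Tg in DN2-3 cells ran from -1.50 to 0.34 on the log2 scale, with a median of -0.04. The lowest was Abcg3, an ABC transporter family gene beside the chromosome 5 cluster, at -1.50 in DN2-3 and -0.84 in DN4. The next was Gm12250, known as Irgb10, an effector IRG beside Igtp, at -0.75 in DN2-3 and -0.22 in DN4. The highest was Lrrc8c, on the other side of the chromosome 5 cluster, at 0.34. These values were not tested.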
